A study of Mus musculus with 8 samples.

Results

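The 33 genes described here make fatty acids and cholesterol, or control that synthesis. They were chosen by symbol from a table of 32098 gene rows, and all 33 were found. Of these, 13 belong to the fatty acid arm, 15 to the sterol arm and 5 are shared regulators. They were measured by RNA sequencing of whole tumours grown from 4T1, a murine breast cancer cell line, with genotype given as WT. In 4 tumours the treatment combined an immune checkpoint inhibitor with radiation (RI, replicates 1, 2, 4 and 5), and in the other 4 it was the inhibitor alone (ICI, replicates 1, 2, 3 and 4), so every tumour had received the inhibitor. Neither the inhibitor nor the dose and field of radiation is named in the labels, and nor are the times of treatment and harvest or the mouse strain, sex and age. They do not tie tumours to separate animals, so p-values measure no more than the spread among these 8 samples, part of which may be technical. The design text gives 3 replicates a group, but 4 were listed, and all were used.

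Both arms start from cytosolic acetyl-CoA. In the fatty acid arm it is carboxylated to malonyl-CoA and built into palmitate, which elongases lengthen and desaturases bend. In the sterol arm it is condensed to mevalonate, joined into squalene and closed to lanosterol, which a series of oxidations and reductions turns into cholesterol. Genes of both arms are known targets of the SREBP transcription factors, with SREBP-1c weighted to the fatty acid arm and SREBP-2 to the sterol arm. SCAP escorts these factors to the Golgi for cleavage, and INSIG proteins hold SCAP back when sterols are plentiful. Tumour cells, fibroblasts, macrophages and fat cells all use parts of this machinery. In a whole tumour, fewer cells of a type and less RNA per cell cannot be told apart.

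SREBP is known to act at promoters, through sterol regulatory elements, beside the factor NF-Y, which binds the letters CCAAT. These letters and TCACNCCAC, a form of the sterol element, were searched on both strands at the starts of these genes. The 250 bases before the start are shown for 2 fatty acid genes, of which Fasn holds the letters CCAAT and Elovl6 does not, and for 2 sterol genes. Of these, Hmgcs1 holds the only match of TCACNCCAC among the 27 members that could be searched, and Nsdhl is a late enzyme of the route. Capitals mark CCAAT or its reverse complement ATTGG, and in Hmgcs1 also TCACNCCAC. The sequences are those of RefSeq on GRCm38.p6, written 5′ to 3′ on the strand of the gene.
Fasn, chr11:120824548-120824797, minus strand: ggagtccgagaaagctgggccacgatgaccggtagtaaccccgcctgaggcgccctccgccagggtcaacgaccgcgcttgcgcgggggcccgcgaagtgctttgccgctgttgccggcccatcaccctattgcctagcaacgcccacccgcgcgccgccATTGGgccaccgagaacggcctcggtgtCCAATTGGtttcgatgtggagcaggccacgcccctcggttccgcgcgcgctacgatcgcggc
Elovl6, chr3:129532136-129532385, plus strand: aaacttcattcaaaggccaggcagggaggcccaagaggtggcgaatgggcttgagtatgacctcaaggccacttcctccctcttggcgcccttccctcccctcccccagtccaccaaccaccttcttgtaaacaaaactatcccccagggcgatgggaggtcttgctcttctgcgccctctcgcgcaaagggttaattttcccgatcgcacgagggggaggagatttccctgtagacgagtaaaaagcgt
Hmgcs1, chr13:119690101-119690350, plus strand: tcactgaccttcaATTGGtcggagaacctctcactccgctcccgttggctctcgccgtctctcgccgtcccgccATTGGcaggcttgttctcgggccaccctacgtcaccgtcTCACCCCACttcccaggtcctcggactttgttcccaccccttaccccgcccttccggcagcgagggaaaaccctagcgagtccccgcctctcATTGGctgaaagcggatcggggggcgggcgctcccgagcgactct
Nsdhl, chrX:72918271-72918520, plus strand: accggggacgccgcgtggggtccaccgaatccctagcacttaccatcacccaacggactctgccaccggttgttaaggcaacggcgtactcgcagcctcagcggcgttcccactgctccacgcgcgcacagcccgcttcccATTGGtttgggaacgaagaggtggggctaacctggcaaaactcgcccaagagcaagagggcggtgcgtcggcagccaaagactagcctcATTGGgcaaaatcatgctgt
Start windows of 300 bases, which reach from 250 bases before the start to 50 after it, were found for 27 of the 33 genes. CCAAT on either strand was present for 12 of 12 sterol genes (100%), 7 of 10 fatty acid genes (70%) and 4 of 5 regulators (80%), against 41.1% of 27025 genes of the table with such a window, a gene with several starts being counted if any window held the letters. The sterol genes held 29 matches in 15 windows, of which 21 were centred within the 150 bases before the start. The fatty acid genes held 10 in 12 windows, of which 8 were. No such total was made over all genes. For Acaca and Acacb the only window lies inside the gene span, so the outer end of the span was not searched. In Fasn the letters CCAATTGG read the same on both strands and were counted as 2 matches. TCACNCCAC was present for 1 of 12 sterol genes, Hmgcs1, for none of the fatty acid genes or regulators, and for 1.44% of all genes with a window. No overlap with another motif was sought, and a match in letters is not a bound site. The genes with a window include many that were too low to be tested here. No share was counted among tested genes alone.

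The libraries held between 27013060 and 42622664 fragments, a total inferred from the spacing of low FPKM values. FPKM are fragments per kilobase of exon and per size of the library, so a comparison between genes depends on the exon length used. Tested members rested on 240 to 22932 fragments in a tumour. ICI 1 stood apart by its neutrophil markers, with a summed 21399 FPKM over 8 genes against 258 to 671 FPKM in the other ICI tumours, and RI 4 by 3 ribosomal RNA-like genes that took 60.7% of its summed FPKM. Of the defining epithelial markers Krt8 had 412 to 792 FPKM in RI and 468 to 1064 FPKM in ICI. The mitochondrial share of fragments was 2.72% to 3.24% in RI and 4.41% to 8.21% in ICI, so the groups did not overlap in it, and its part in the results was not tested. The labels give no batch.

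The comparison of RI with ICI asks what radiation added to the inhibitor. In the fatty acid arm, Acaca, Fasn, Acly, Scd2 and Elovl6 were higher in all 4 RI tumours than in any ICI tumour, at 1.76 to 2.34 times the ICI mean FPKM. Of all genes tested 16.7% had every RI value above every ICI value. In the sterol arm no gene passed the test in either direction. Each gene was tested by limma on log2(FPKM + 1), a scale that understates the change of low genes, with Benjamini-Hochberg adjustment over 13439 genes and a threshold of 0.05. In the fatty acid arm 5 of 13 members rose and 0 fell, and the median of their log2 differences was 0.56. Of all genes tested 17.7% passed, 11.1% as rises and 6.6% as falls, and the median was 0.01. The count of 5 depended on the scale and the filter. With TPM 0 of these members passed (1.25% of 15565 genes rose), at log2 differences of 0.90 to 1.16 for the 5 genes. With TPM that leave out the 3 ribosomal RNA-like genes, chosen after seeing the data, 7 of 13 rose (32.1% of 15811 genes). With no filter Acaca and Fasn alone rose (0.592% of 32098 genes). Of the 15 sterol genes 14 reached 1 FPKM in at least 4 tumours and were tested. By limma 0 rose and 0 fell, 2 had an unadjusted p under 0.05 (35.9% of all genes), and the median log2 difference was -0.20. By limma voom on the recovered fragments 1 sterol gene, Nsdhl, fell (7.97% of 13330 genes).

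**Figure D1:**
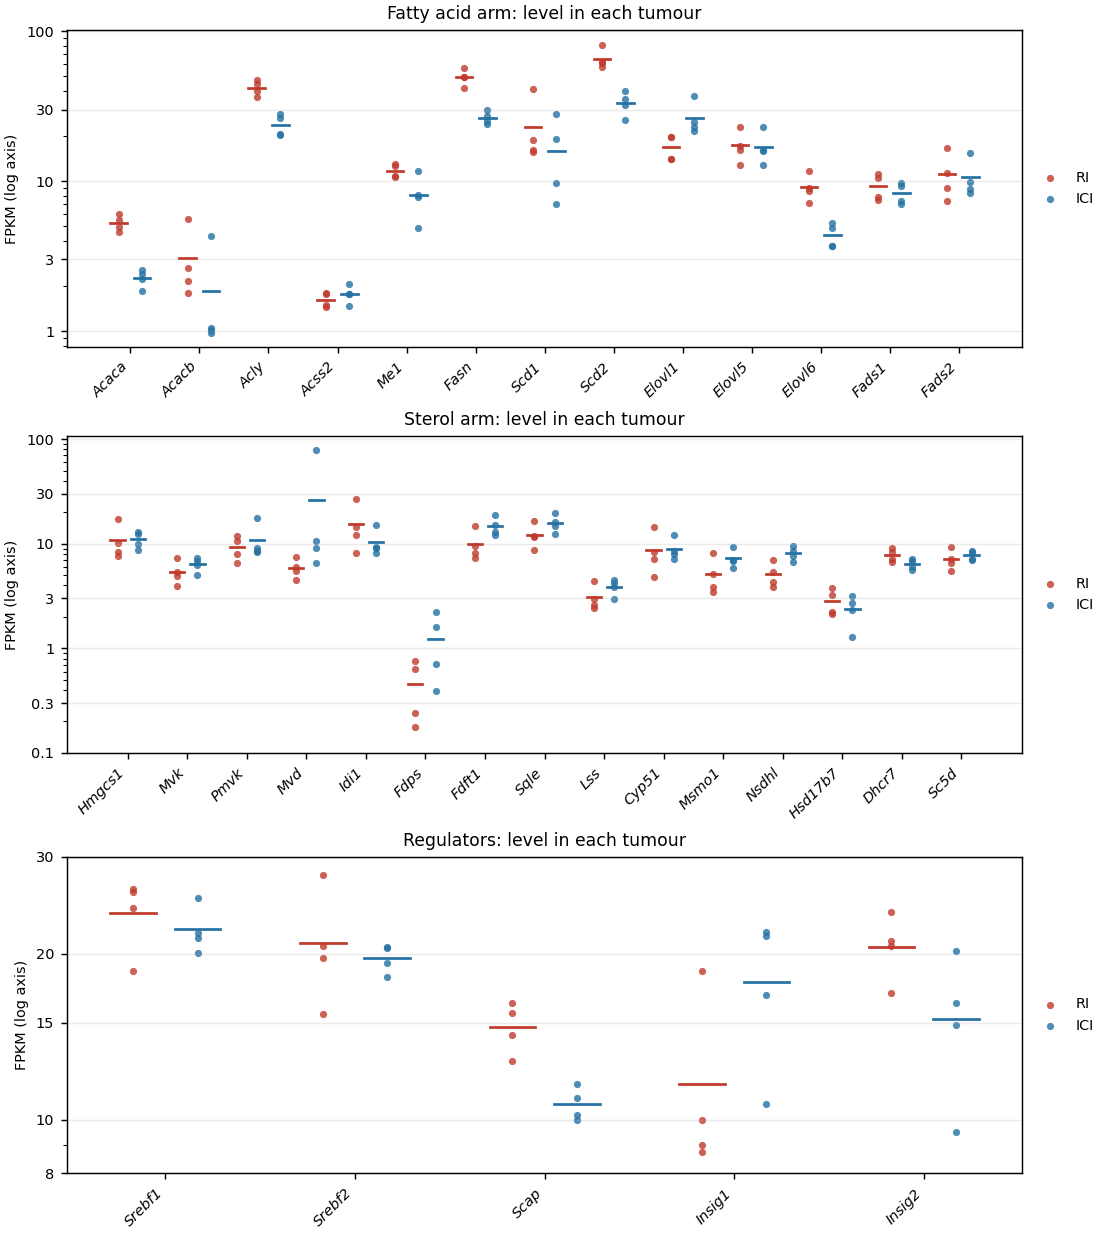
FPKM of each of the 33 genes in each tumour on a log axis, RI left of ICI, with 1 point per tumour and a line at the mean of 4. Acaca, Acly, Fasn, Scd2, Elovl6 and Scap have every RI point above every ICI point (16.7% of all genes tested). Elovl1 has every RI point below (11.2% of all genes tested), and the other genes overlap.

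Acetyl-CoA for both arms comes from ATP citrate lyase, encoded by Acly (chr11:100476353-100528000 on GRCm38, minus strand). Acly had 36.1, 47.0, 39.7 and 44.3 FPKM in RI 1, 2, 4 and 5, against 20.4, 27.9, 26.3 and 20.5 FPKM in ICI 1, 2, 3 and 4. The lowest RI tumour lay above the highest ICI tumour. The means were 41.8 ± 4.82 FPKM in RI and 23.8 ± 3.89 FPKM in ICI (SD, n = 4 each), and Acly rose by 0.80 on the log2 scale (SE 0.16, adjusted p = 0.0166 by limma with Benjamini-Hochberg adjustment). Acss2, which makes acetyl-CoA from acetate instead, had 1.44 to 1.79 FPKM in RI and 1.47 to 2.05 FPKM in ICI. Its log2 difference was -0.07, with a 95% interval from -0.39 to 0.25, so Acss2 overlapped between the groups while Acly was higher in RI. The low FPKM of Acss2 came from 492 to 763 fragments over an exon length of 10163 bases. Acly had 3543 to 9968 fragments over 5279 bases.

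Acetyl-CoA carboxylase makes malonyl-CoA, the first committed step. Acaca (chr11:84129672-84401651, plus strand), the cytosolic form used for synthesis, had 4.55, 5.50, 6.07 and 4.95 FPKM in RI 1, 2, 4 and 5, against 2.21, 2.57, 2.39 and 1.85 FPKM in ICI 1, 2, 3 and 4. Every RI tumour was above every ICI tumour by a gap wider than the ICI range. Acaca rose by 0.95 (SE 0.14, adjusted p = 0.0115 by limma with Benjamini-Hochberg adjustment), which is 2.34 times the ICI mean FPKM. Acacb, the form at the mitochondrial outer membrane whose product restrains fatty acid oxidation, had 1.80, 5.60, 2.17 and 2.63 FPKM in RI 1, 2, 4 and 5, against 4.31, 1.02, 1.05 and 0.976 FPKM in ICI 1, 2, 3 and 4. A single tumour was high in each group, RI 2 and ICI 1, and the groups overlapped (log2 difference 0.57, adjusted p = 0.304 by limma with Benjamini-Hochberg adjustment). Without ICI 1 the difference was 0.92 with adjusted p = 0.0407 by the same test, so 1 library decides this call.

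Fasn (chr11:120805846-120824547, minus strand), the synthase that assembles palmitate, had 41.5, 57.1, 49.8 and 49.1 FPKM in RI 1, 2, 4 and 5, against 23.99, 27.1, 29.6 and 25.1 FPKM in ICI 1, 2, 3 and 4. The groups were well apart, and the RI mean of 49.4 ± 6.36 FPKM was 1.87 times the ICI mean of 26.5 ± 2.48 FPKM (SD, n = 4 each). Fasn rose by 0.87 (SE 0.15, adjusted p = 0.0130 by limma with Benjamini-Hochberg adjustment). Acaca and Fasn were the 2 members that passed in all 8 fits that each left out 1 tumour, with adjusted p up to 0.0467 for Acaca and 0.0479 for Fasn by limma with Benjamini-Hochberg adjustment. Me1, the cytosolic malic enzyme that supplies NADPH to the synthase, had 10.6, 12.7, 10.8 and 13.0 FPKM in RI 1, 2, 4 and 5, against 4.87, 8.13, 11.6 and 7.82 FPKM in ICI 1, 2, 3 and 4. ICI 3 alone reached the RI range, and Me1 did not pass (log2 difference 0.53, adjusted p = 0.110 by limma with Benjamini-Hochberg adjustment), although it did without ICI 3 (0.71, adjusted p = 0.0416).

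Among the enzymes that modify palmitate, the elongase and 1 of the desaturases acting on saturated chains were higher in RI. Elovl6 (chr3:129532355-129638495, plus strand), which lengthens palmitate to stearate, had 9.01, 11.7, 8.59 and 7.18 FPKM in RI 1, 2, 4 and 5, against 3.69, 4.84, 5.28 and 3.69 FPKM in ICI 1, 2, 3 and 4. All RI values were higher, and Elovl6 rose by 0.91 (SE 0.17, adjusted p = 0.0152 by limma with Benjamini-Hochberg adjustment). Scd2 (chr19:44293674-44306864, plus strand), a stearoyl-CoA desaturase that makes oleate, had 81.3, 62.3, 61.1 and 57.7 FPKM in RI 1, 2, 4 and 5, against 35.4, 40.0, 25.5 and 32.4 FPKM in ICI 1, 2, 3 and 4. It had the highest mean of all 33 genes in both groups and rose by 0.96 (SE 0.18, adjusted p = 0.0153 by limma with Benjamini-Hochberg adjustment).

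Scd1, its neighbour on chr19 (44394455-44407879, minus strand) with the same activity, had 15.7, 40.9, 16.2 and 18.9 FPKM in RI 1, 2, 4 and 5, against 28.0, 9.67, 7.05 and 19.1 FPKM in ICI 1, 2, 3 and 4. RI 2 was the highest tumour and ICI 1 the next, and the groups overlapped. The log2 difference of 0.56 had a 95% interval from -0.45 to 1.58 (adjusted p = 0.391 by limma with Benjamini-Hochberg adjustment). The Scd genes are paralogs, and how shared reads were counted is not given in the sources used here, so the split between them is uncertain. The adipocyte marker list moved with Scd1 in 1 tumour. Its 9 genes summed to 8.03, 324, 5.96 and 18.1 FPKM in RI 1, 2, 4 and 5, against 8.38, 0.638, 6.97 and 0.165 FPKM in ICI 1, 2, 3 and 4. All 9 were highest in RI 2, where Cfd had 223 FPKM and Adipoq 31.2 FPKM, whereas Adipoq, Cidec, Plin1 and Cfd were at 0 in ICI 4. The part of these cells in the level of Scd1 was not tested. Among the ICI tumours, ICI 1 had both the highest adipocyte sum and the highest Scd1. It also had the highest sum of 8 sebaceous and skin markers, 41.0 FPKM against 8.41 to 10.5 FPKM in the other ICI tumours. Of these 8 genes, 3 were highest in ICI 1 among all 8 tumours, and their part in Scd1 was not tested. ICI 3 had the next adipocyte sum and the lowest Scd1, and ICI 4 the lowest sum and the next Scd1.

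None of the elongases and desaturases of other chains passed the test. Elovl1, which extends very long saturated chains, had 19.8, 19.8, 13.997 and 14.1 FPKM in RI 1, 2, 4 and 5, against 36.8, 21.7, 24.6 and 22.9 FPKM in ICI 1, 2, 3 and 4. It was the only member with every RI value below every ICI value (11.2% of all genes), and overlaps Cdc20 on the genome. Its log2 difference of -0.61 missed the threshold (adjusted p = 0.0661 by limma with Benjamini-Hochberg adjustment). Scaling by upper quartile, median or quantiles took it past the threshold, with differences from -0.65 to -0.62. Elovl5, Fads1 and Fads2, which extend and desaturate polyunsaturated chains, had log2 differences of 0.03, 0.12 and 0.04. Their 95% intervals ran from -0.45 to 0.51 for Elovl5, from -0.26 to 0.50 for Fads1 and from -0.54 to 0.62 for Fads2, and the sign turned for Elovl5 and Fads2 with median centring.

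**Figure D2:**
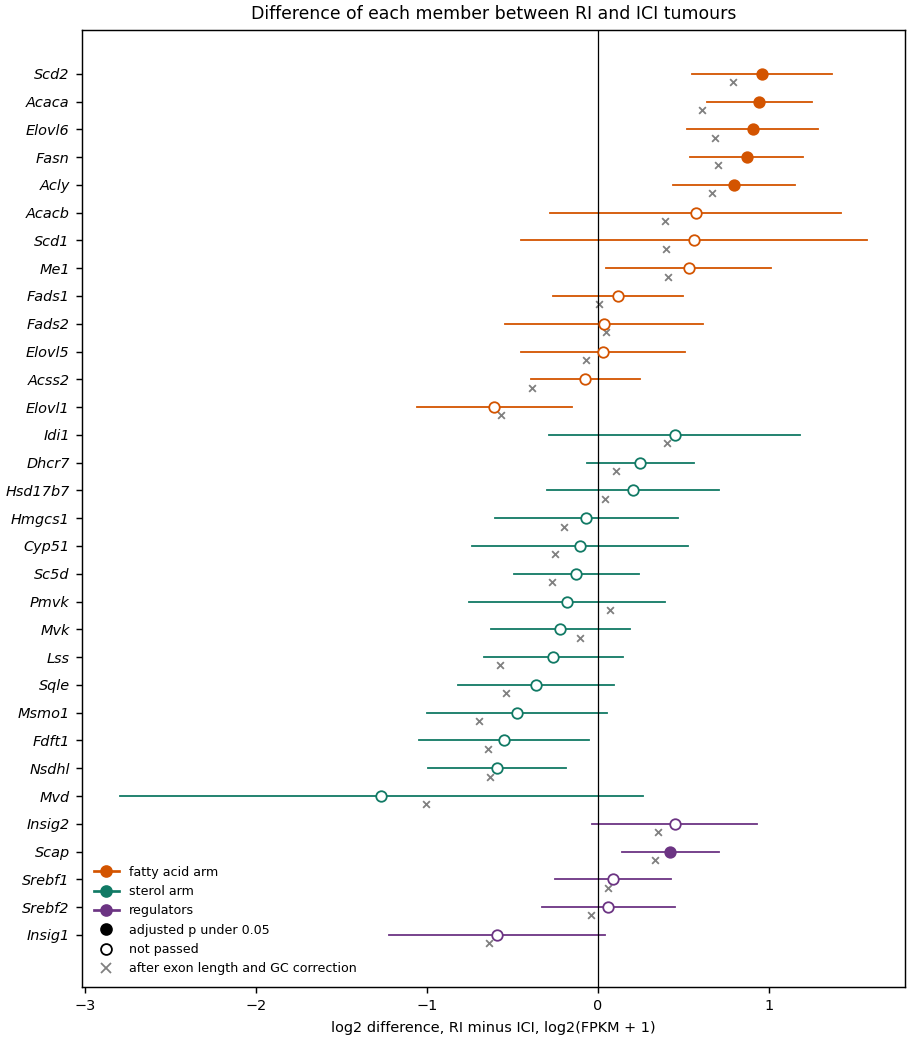
Log2 difference, RI minus ICI, of the 32 members tested, with 95% intervals, ordered within each arm. Filled points passed the test and crosses give the difference after removal of each tumour's trend on exon length and GC content. The 5 filled fatty acid points lie from 0.80 to 0.96, and most sterol points lie left of 0, which does not hold with TPM that leave out 3 ribosomal RNA-like genes.

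The early sterol genes, which carry acetyl-CoA to mevalonate and to activated isoprene units, overlapped between the groups. Hmgcs1, which makes HMG-CoA and is a classical SREBP-2 target, had 10.3, 17.1, 7.68 and 8.30 FPKM in RI 1, 2, 4 and 5, against 12.3, 13.1, 8.65 and 10.1 FPKM in ICI 1, 2, 3 and 4. Its means were 10.8 ± 4.33 FPKM in RI and 11.01 ± 2.02 FPKM in ICI (SD, n = 4 each), with a log2 difference of -0.07 and a 95% interval from -0.60 to 0.47. The kinases Mvk and Pmvk had log2 differences of -0.22 and -0.18, within their spread. Mvd, the decarboxylase that yields isopentenyl diphosphate, had 5.54, 7.48, 4.48 and 6.01 FPKM in RI 1, 2, 4 and 5, against 78.7, 9.20, 6.58 and 10.6 FPKM in ICI 1, 2, 3 and 4. Its difference of -1.27, the lowest of all members, rested on ICI 1, and without that library it was -0.51 and did not pass. ICI 1 was the library with the neutrophil sum of 21399 FPKM. It also had the highest endothelial and skin marker sums, 195 and 41.0 FPKM. The part of any of those cells in Mvd, Acacb or Pmvk was not tested.

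Idi1, the isomerase of isopentenyl diphosphate, had 14.6, 27.1, 12.1 and 8.11 FPKM in RI 1, 2, 4 and 5, against 9.23, 14.99, 9.03 and 8.15 FPKM in ICI 1, 2, 3 and 4. Tumour 2 of each group was its highest, and the log2 difference was 0.45 (95% interval from -0.28 to 1.19). The table also lists Idi1 pseudogenes, with which reads could be shared. Fdps, which makes farnesyl diphosphate, reached 1 FPKM in 2 of 8 tumours, ICI 1 and ICI 4, and was not among the genes tested by limma. It had 0.633, 0.761, 0.176 and 0.240 FPKM in RI 1, 2, 4 and 5, against 2.21, 0.713, 0.388 and 1.597 FPKM in ICI 1, 2, 3 and 4, on 27 to 307 fragments. An exact permutation test of the mean log2 difference of -0.56 gave a two-sided p = 0.143, where 4 against 4 tumours allow no p under 0.0286. Its neighbours in the route stood many times higher, with Idi1 at a mean of 15.5 FPKM and Fdft1 at 9.99 FPKM in RI. Fdps overlaps Gm22935 on the genome, and how fragments were counted is not given, so the level of Fdps is uncertain.

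From squalene onwards no member passed the test with all 8 tumours. Fdft1, squalene synthase, had 9.498, 14.9, 7.38 and 8.21 FPKM in RI 1, 2, 4 and 5, against 15.3, 19.0, 12.1 and 12.9 FPKM in ICI 1, 2, 3 and 4. RI 2 alone reached the ICI range, and the log2 difference was -0.55 (95% interval from -1.05 to -0.05, adjusted p = 0.107 by limma with Benjamini-Hochberg adjustment). The span of Fdft1, introns included, overlaps that of Ctsb, as the spans of 17 of the 33 members overlap some other gene. Whether their exons overlap was not examined. Without strand, only reads from bases shared by the exons of both genes could not be told apart. Nsdhl (chrX:72918557-72958514, plus strand), a dehydrogenase that helps remove methyl groups from the sterol ring, had 3.84, 6.99, 4.28 and 5.33 FPKM in RI 1, 2, 4 and 5, against 9.46, 7.64, 6.73 and 8.52 FPKM in ICI 1, 2, 3 and 4. Again RI 2 alone crossed into the ICI range, and the adjusted p of 0.05001 for a difference of -0.59 (SE 0.18) lay just above the threshold by limma with Benjamini-Hochberg adjustment. It passed without RI 2 (-0.73, adjusted p = 0.0478 by the same test).

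Msmo1, the monooxygenase that acts before Nsdhl, had 5.19, 8.11, 3.42 and 3.83 FPKM in RI 1, 2, 4 and 5, against 7.05, 9.40, 5.90 and 6.77 FPKM in ICI 1, 2, 3 and 4. The 3 RI tumours other than RI 2 were below every ICI tumour, with a log2 difference of -0.47 and adjusted p = 0.177 by limma with Benjamini-Hochberg adjustment. Sqle, squalene epoxidase and a control point of the route, had 11.5, 16.6, 11.8 and 8.77 FPKM in RI 1, 2, 4 and 5, against 12.4, 19.7, 16.1 and 14.9 FPKM in ICI 1, 2, 3 and 4, a difference of -0.36 with overlapping groups. Lss, which closes squalene epoxide to lanosterol, Cyp51, the lanosterol demethylase, and Sc5d, a late desaturase, had differences of -0.26, -0.10 and -0.13. Hsd17b7, a ketosteroid reductase, and Dhcr7, which carries out a last reduction of the sterol ring, had differences of 0.21 and 0.25, and no interval of these 5 genes excluded 0.

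The contrast of the arms was then read within each tumour, which sets aside a shift common to both arms. The mean log2(FPKM + 1) of the 13 fatty acid genes minus that of the 14 tested sterol genes was 0.82, 0.67, 0.95 and 0.96 in RI 1, 2, 4 and 5, against 0.11, 0.04, 0.35 and 0.21 in ICI 1, 2, 3 and 4. The lowest RI tumour lay above the highest ICI tumour, with means of 0.85 ± 0.14 in RI and 0.18 ± 0.13 in ICI (SD, n = 4 each) and a difference of 0.67. The fatty acid mean contributed 0.43 of it, from 3.82 ± 0.20 in RI and 3.39 ± 0.13 in ICI, and the sterol mean -0.24, from 2.98 ± 0.33 in RI and 3.21 ± 0.23 in ICI. The gap between the medians of the arms was 0.76. This is a description of the chosen members and carries no p. The gap stayed above 0 in all 25 other settings, from 0.51 to 0.94, and was 0.92 without ICI 1 and RI 2, an alternative chosen after seeing the data.

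**Figure D3:**
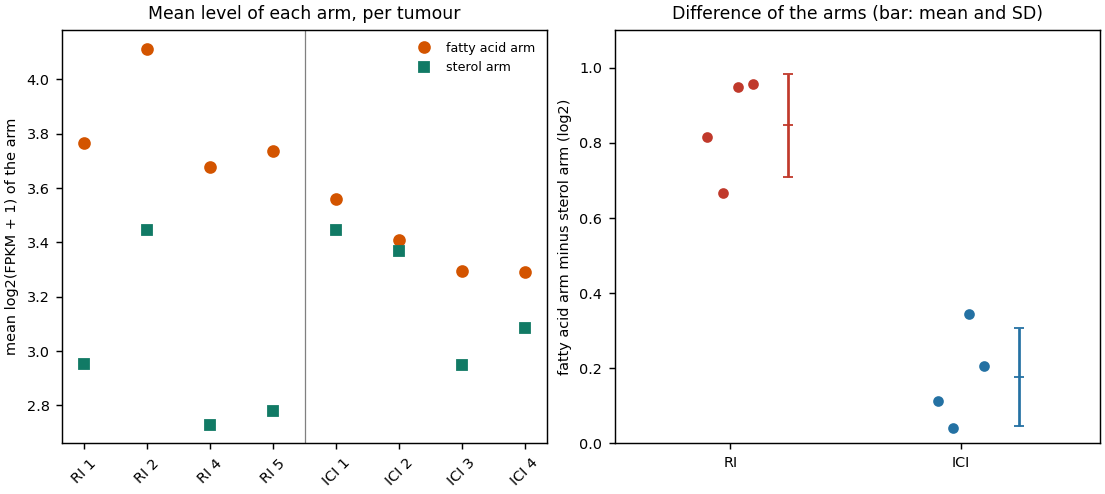
Left, mean log2(FPKM + 1) of the 13 fatty acid genes (circles) and of the 14 tested sterol genes (squares) in each tumour. Right, their difference per tumour with the mean and SD of 4, where RI tumours sit between 0.67 and 0.96 and ICI tumours between 0.04 and 0.35.

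Direction was less certain for the sterol arm than for the fatty acid arm. Of the fatty acid genes 11 of 13, and of the sterol genes 3 of 14, had a higher mean in RI (51.1% of all genes tested), but with TPM that leave out 3 ribosomal RNA-like genes 10 of 15 sterol genes did. That scaling, chosen after seeing the data, moved the median of all genes to 0.35, and relative to it the arms had medians of 0.65 and -0.20. With array weights, which reduce the part of ICI 1 and RI 4, the sterol genes divided 7 and 7. The fatty acid median was above the sterol median in each case.

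Other cell types and proliferation were read from marker lists, whose counts stand beside the 11.1% of all genes that rose and the 6.6% that fell. The summed level of 8 neutrophil markers was 108 to 282 FPKM in RI and 258 to 21399 FPKM in ICI, or 258 to 671 FPKM in ICI without ICI 1, and 2 of 7 tested, S100a8 and S100a9, fell. That of 8 fibroblast markers was 109 to 522 FPKM in RI and 52.7 to 73.1 FPKM in ICI, and 4 of the 8 rose. That of 8 proliferation markers was 373 to 406 FPKM in RI and 201 to 385 FPKM in ICI, and 2 of the 8 rose, Mcm2 and Mcm5. The 7 skeletal muscle markers summed to 122 to 547 FPKM in RI and 15.7 to 281 FPKM in ICI, and 2 of 6 tested rose, Ckm and Myh4, both at 0 in ICI 4. The 9 epithelial markers summed to 785 to 1429 FPKM in RI and 1016 to 2050 FPKM in ICI, and 1 of 5 tested, Cldn3, fell. The 7 endothelial markers summed to 20.3 to 53.6 FPKM in RI and 21.6 to 42.2 FPKM in ICI 2, 3 and 4, with 195 FPKM in ICI 1. By limma 0 of 5 tested passed, and 1 had an unadjusted p under 0.05. Skin markers summed to 5.60 to 18.5 FPKM in RI. In ICI they summed to 41.0 FPKM in ICI 1 and to 8.41 to 10.5 FPKM in the rest. Of 3 tested, 1 fell, Krt10. The part of these cells in the levels of the 33 genes was not tested.

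Inside the RI group, members of each arm were most often highest in RI 2. There 12 of the 14 tested sterol genes, 7 of the 13 fatty acid genes and 3 of the 5 regulators had their highest RI value, as did 27.6% of all genes tested. Of the 14 sterol genes 11, and of the 13 fatty acid genes 4, were highest in ICI 2 among ICI tumours, as were 23.6% of all genes. Against the mean of the other 3 RI tumours RI 2 was higher in 14 of 14 sterol genes, with a median of 0.56 on the log2 scale, and in 12 of 13 fatty acid genes with a median of 0.28, where the median of all genes was 0.09. RI 4 was below the other 3 RI tumours in 14 of 14 sterol genes with a median of -0.31, but the median of all genes was -0.29 there. Of the 5 fatty acid genes that rose, Acly, Fasn and Elovl6 were highest in RI 2, Scd2 in RI 1 and Acaca in RI 4. Whether the arms differ in this was not tested. Members share the library, its depth and its cell content, so these counts are not independent of one another. RI 2 was also the tumour with the adipocyte sum of 324 FPKM and the highest fibroblast sum, 522 FPKM against 109 to 247 FPKM in the other RI tumours, and the part of either in the sterol levels was not tested.

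**Figure D4:**
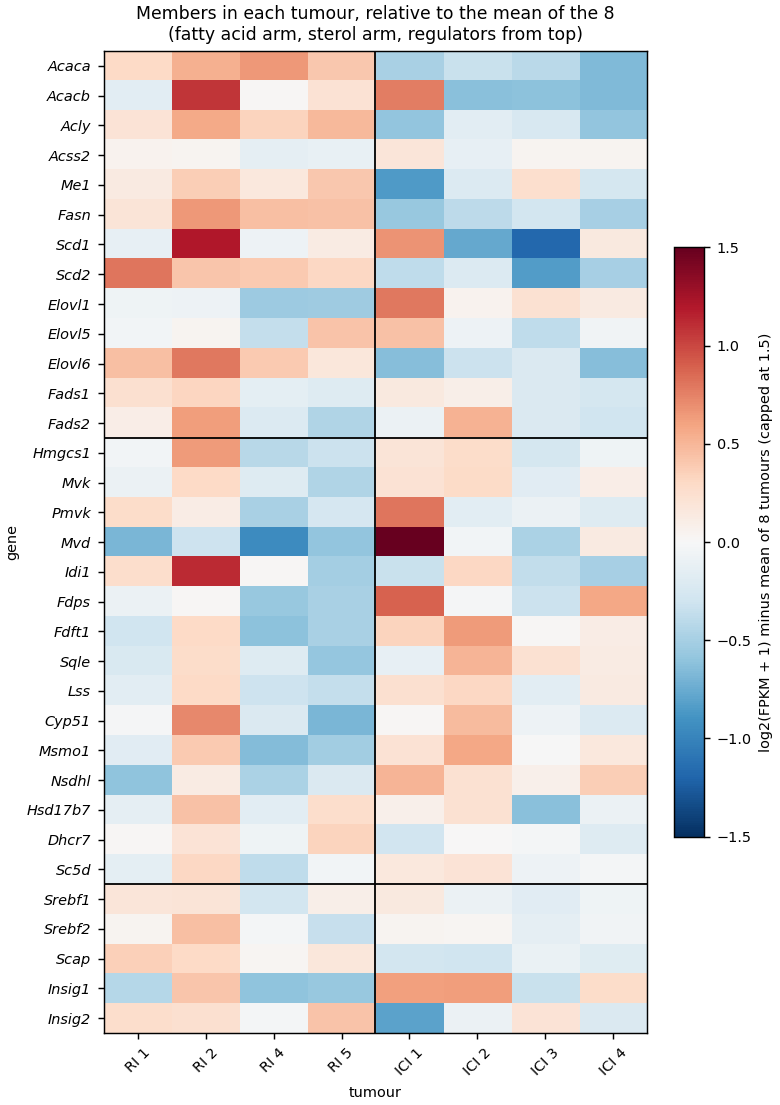
Log2(FPKM + 1) of each member minus its mean over the 8 tumours, RI columns left of ICI columns, capped at 1.5 in either direction. Acaca, Acly, Fasn, Scd2 and Elovl6 are above their mean in every RI tumour and below it in every ICI tumour, and most sterol genes are highest in RI 2 within RI and in ICI 2 within ICI.

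The number of members that passed depended on single tumours. Without RI 2, 4 fatty acid members rose (3.25% of 13151 genes), all but Acly of the 5, and 1 sterol member, Nsdhl, fell (2.21%). Without both ICI 1 and RI 2, 6 fatty acid members rose (6.28% of 12809 genes), Acacb beside the 5, and 2 sterol members fell, Nsdhl and Fdft1 (5.87%). Without ICI 4 only 338 genes of 13171 passed (2.57%), among them Acaca and Fasn, while Acly, Scd2 and Elovl6 had adjusted p of 0.0517 to 0.0572 by limma with Benjamini-Hochberg adjustment.

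Among the regulators, the messages of the SREBPs themselves did not differ beyond their spread. Srebf1, whose products favour fatty acid genes, had 25.9, 26.2, 18.6 and 24.2 FPKM in RI 1, 2, 4 and 5, against 25.3, 21.4, 20.1 and 21.8 FPKM in ICI 1, 2, 3 and 4. The groups overlapped, with a log2 difference of 0.09 and a 95% interval from -0.25 to 0.43. Gene-level FPKM do not separate SREBP-1a from SREBP-1c, and the gene overlaps Rai1. Srebf2 averaged 20.9 ± 5.06 FPKM in RI and 19.6 ± 1.15 FPKM in ICI (SD, n = 4 each), and its log2 difference was 0.06 (95% interval from -0.33 to 0.45). These are messages, and the cleavage that activates the factors was not measured.

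Scap (chr9:110333288-110384950, plus strand), the escort of both factors, had 16.3, 15.6, 12.8 and 14.2 FPKM in RI 1, 2, 4 and 5, against 10.2, 10.01, 11.6 and 10.95 FPKM in ICI 1, 2, 3 and 4. All RI values were above all ICI values (16.7% of all genes tested), and Scap rose by 0.42 (SE 0.13, adjusted p = 0.0461 by limma with Benjamini-Hochberg adjustment), the 1 regulator of 5 that passed. It stayed past the threshold in 1 of 8 fits that left out a tumour, with adjusted p from 0.0377 to 0.127, and the library whose absence kept it was RI 4. Insig1, itself an SREBP target and a brake on SCAP, had 10.02, 18.6, 8.75 and 8.996 FPKM in RI 1, 2, 4 and 5, against 21.6, 21.9, 10.7 and 16.8 FPKM in ICI 1, 2, 3 and 4. As in the sterol arm, RI 2 was the high RI tumour and the difference of -0.59 did not pass (adjusted p = 0.166 by limma with Benjamini-Hochberg adjustment). Insig2, the form less dependent on SREBP, had 21.1, 20.6, 16.97 and 23.8 FPKM in RI 1, 2, 4 and 5, against 9.52, 16.3, 20.2 and 14.9 FPKM in ICI 1, 2, 3 and 4, a difference of 0.45 with overlapping groups (adjusted p = 0.164 by the same test).

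Around the regulators, 4 of 13 tested genes of sterol sensing and enzyme turnover rose and 1 fell, beside 11.1% and 6.6% of all genes. Mbtps1, the protease that makes the first cut in SREBP, averaged 17.2 ± 1.43 FPKM in RI and 12.04 ± 1.35 FPKM in ICI (SD, n = 4 each) and rose by 0.49 (adjusted p = 0.0342 by limma with Benjamini-Hochberg adjustment). Of the endoplasmic reticulum genes for degradation of sterol enzymes, Erlin2 rose by 0.62 and the ubiquitin ligase March6, which acts on squalene epoxidase, rose by 0.79 (adjusted p = 0.0314 and 0.0217 by limma with Benjamini-Hochberg adjustment). Erlin1 rose as well, by 0.55. Aup1, a further degradation factor, fell by 0.83 with 27.1 ± 2.82 FPKM in RI and 48.9 ± 6.26 FPKM in ICI (SD, n = 4 each), in all 8 fits that left out a tumour.

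In the remaining lipid lists most genes did not pass the test, as over all genes, of which 17.7% passed. Of 15 tested genes for other steps of fatty acid synthesis and activation, Acsl5, which activates fatty acids to acyl-CoA, rose by 0.62 and Tecr, the last reductase of chain elongation, fell by 0.64 with 31.9 ± 5.54 FPKM in RI and 50.5 ± 11.01 FPKM in ICI (SD, n = 4 each). Of 13 tested genes of other sterol and isoprenoid steps, Nus1, a subunit of the dolichol branch, rose by 0.76 and none fell. Of 16 tested genes of cholesterol uptake, esterification and efflux, 4 rose and 1 fell, against 11.1% and 6.6% of all genes. Lipa, the lysosomal acid lipase that frees cholesterol from esters, averaged 5.44 ± 0.74 FPKM in RI and 2.28 ± 0.50 FPKM in ICI (SD, n = 4 each) and rose by 0.98 (adjusted p = 0.0126 by limma with Benjamini-Hochberg adjustment). Lrp1, a lipoprotein and scavenger receptor, rose by 0.87, Nceh1, a cholesteryl ester hydrolase, by 0.75 and Abca1, the cholesterol exporter, by 0.89. Nr1h2, which encodes a liver X receptor, fell by 0.72.

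Of 8 macrophage markers 2 rose, Adgre1 and Mrc1, and 6 did not pass, where 11.1% of all genes rose. Adgre1 had 6.14 to 9.02 FPKM in RI and 1.12 to 1.47 FPKM in ICI. The summed level of the 8 macrophage markers ran from 334 to 827 FPKM in RI and from 344 to 437 FPKM in ICI. None of these markers was at 0, and their part in the change of Lipa, Abca1 or Lrp1 was not tested. Of 9 tested genes of fatty acid uptake none passed by limma, and 2 had an unadjusted p under 0.05. Of 18 genes of triglyceride synthesis and storage 1 rose, Gpat4, an acyltransferase of the first step, by 0.64. Of 19 tested genes of fatty acid oxidation, Acadvl, Hadha and Hadhb, which act on long chains, rose by 0.75, 0.64 and 0.74, and Eci1, an isomerase for unsaturated chains, fell by 0.48, so 3 rose and 1 fell (11.1% and 6.6% of all genes).

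Exon length moved with the difference between the groups over all genes. Divided into 10 equal groups by length, genes had a median log2 difference of -0.38 among the shortest (45 to 781 bases) and of 0.27 among the longest (9174 to 41324 bases). The median length was 5279 bases for the fatty acid arm, 4504.5 bases for the tested sterol genes and 3768 bases for all genes, and 4 fatty acid members but 1 sterol member lay in the longest group. After each tumour's trend on length and GC content was removed, the same 5 fatty acid members rose (11% of 13320 genes) by 0.61 to 0.79, Acaca by 0.61 in place of 0.95. The medians were then 0.40 for the fatty acid arm and -0.26 for the sterol arm, beside -0.01 for all genes, and in the sterol arm Nsdhl and Lss fell (9.41% of genes), by 0.63 and 0.57 with adjusted p of 0.0472 and 0.0480 by limma with Benjamini-Hochberg adjustment. Of the other lipid genes named above, Tecr, Mbtps1, Abca1, Hadha and Eci1 did not pass after this correction, with adjusted p from 0.0594 to 0.197 by the same test.

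**Figure D5:**
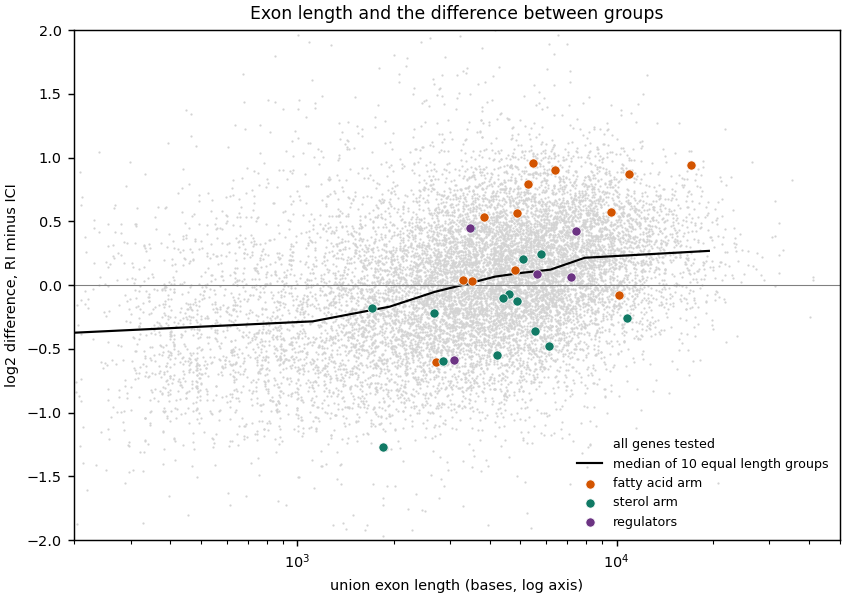
Log2 difference, RI minus ICI, of each gene tested against its union exon length on a log axis, with differences beyond 2 in either direction not shown. The line joins medians of 10 groups of equal size, from -0.38 to 0.27, and the 5 fatty acid genes that rose lie between 0.80 and 0.96, above the line at their own lengths.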

How the data were processed

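Total RNA of 8 tumours, 4 RI and 4 ICI, had been sequenced. The deposited values are FPKM, computed by the authors, in a single table with a column per tumour. Reads were aligned with HISAT2 to GRCm38 (mm10), per the submitters' processing notes. How fragments were counted, whether strand was used and which annotation served is not given in the sources used here. GENCODE M21 supplied coordinates, union exon length and GC content for 31407 of the 32098 rows, by identifier.

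The test of RI minus ICI covered the 13439 genes that reached 1 FPKM in 4 tumours or more. It was run on log2(FPKM + 1) with limma 3.58.1 in R 4.3.3 (lmFit, then eBayes with trend and robust settings), two-sided, with Benjamini-Hochberg adjustment over all of them and a threshold of 0.05. The same test lies behind every "rose" and "fell" unless another setting is named. Fdps, below the filter, had an exact permutation test instead, with 70 regroupings. Fragments were recovered from FPKM steps (98.6% to 98.8% of low values within 0.05 of a whole number) and used for depth and for voom. All libraries differed beyond sampling noise, with a chi-square of 37.6 or more per gene for the closest pair.

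All 33 members are named. Of 7 other lipid lists up to 4 genes that passed could be named, and of marker lists the summed level and the highest genes, while Mbtps1, Abca1, Adgre1, Mrc1, Ckm, Myh4, Mcm2, Mcm5, Cldn3, Krt10 and Plin1 were added after their values were seen. Members, lists and alternatives were chosen with earlier results of these data known. The alternatives were pseudocounts of 0.1 and 5, other filters, TPM, 3 scalings, a length and GC correction (lowess, span 0.3), array weights, other eBayes settings, voom, the replicate number as a block, and tumours left out.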

Additional observations from a re-analysis of the deposited data

Results flagged for a closer look

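For each member the highest and the lowest tumour of each group were set against the other 3, in 66 groups of 4 tumours. Chance marks about 1 in 20 groups if values are normal and independent, which members of the same library are not. In 6 of the 66 a tumour stood far from the rest. The share marked over all genes was not counted, so an excess among these members is not shown. RI 2 was high for Scd1, with 40.9 FPKM against 15.7 to 18.9 FPKM in the other RI tumours, and for Insig1, with 18.6 FPKM against 8.75 to 10.02 FPKM. ICI 1 was high for Mvd, with 78.7 FPKM against 6.58 to 10.6 FPKM in the other ICI tumours, for Pmvk, with 17.6 FPKM against 8.37 to 9.08 FPKM, and for Acacb, with 4.31 FPKM against 0.976 to 1.05 FPKM. ICI 2 was high for Idi1, with 14.99 FPKM against 8.15 to 9.23 FPKM. RI 2 is the tumour with the highest adipocyte marker sum and ICI 1 the tumour with the highest neutrophil, endothelial and skin marker sums. None of these 6 genes passed the test with all 8 tumours.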

How the results depend on the processing

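The call of 5 fatty acid genes rests on 4 tumours a group. With each tumour left out in turn it was 2 to 6, the sterol calls 0 to 1, the regulator calls 0 to 1, the calls in the other lipid lists 3 to 22 (18 with all tumours), the calls over all genes 338 to 2699 and the gap between the arms' medians 0.64 to 0.94. With no filter 2 fatty acid genes, 0 regulators, 3 genes of other lipid lists and 241 of all genes passed, and with TPM 0, 0, 0 and 310. Array weights called 4319 genes and 36 in other lipid lists, voom 29 in those lists and 1 sterol gene, and eBayes without trend and robust variance 0 regulators. A pseudocount of 5, a mean FPKM of at least 5, upper-quartile scaling, median centring and quantile normalization each called 1 sterol gene, and the length and GC correction 2. The pseudocount of 5 brought the gap to 0.51. TPM without 3 ribosomal RNA-like genes, chosen after seeing the data, called 5449 genes. Of these 7 were in the fatty acid arm, 1 in the sterol arm, 3 among the regulators and 46 in other lipid lists. Leaving out ICI 1 and RI 2, also chosen after seeing the data, called 1556 genes, 2 sterol genes and 0 regulators, with a gap of 0.92. The cause of these shifts was not tested in any setting.

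The labels do not say that replicate numbers pair the tumours. Same-numbered tumours had correlations of deviations of -0.09, -0.12 and -0.12 for numbers 1, 2 and 4. With so few shared numbers, such correlations cannot decide whether tumours were paired. Only numbers 1, 2 and 4 occur in both groups, so the comparison with a block rests on those tumours alone. With the replicate number as a block 22 genes passed over all, and 0 in the fatty acid arm, among the regulators and in other lipid lists, and with the block and the length and GC correction 3 passed over all and again 0 in those 3, with a gap of 0.60.

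Signs turned only for members that did not pass. With TPM without 3 ribosomal RNA-like genes the differences were 0.25 for Acss2, 0.33 for Hmgcs1, 0.15 for Mvk, 0.21 for Pmvk, 0.031 for Sqle, 0.074 for Lss, 0.29 for Cyp51 and 0.26 for Sc5d. With array weights they were 0.043 for Acss2, 0.19 for Hmgcs1, 0.19 for Pmvk, 0.079 for Cyp51 and 0.0042 for Sc5d, and without ICI 1 and RI 4 0.0095 for Acss2, 0.11 for Hmgcs1, 0.19 for Pmvk and 0.0099 for Sc5d. Median centring gave -0.016 for Elovl5 and -0.0090 for Fads2, the length and GC correction -0.068 for Elovl5, 0.069 for Pmvk and -0.037 for Srebf2, and TPM 0.022 for Hmgcs1. The block gave -0.23 for Elovl5, 0.064 for Cyp51 and -0.021 for Hsd17b7, and with the length and GC correction -0.33 for Elovl5, 0.11 for Pmvk and -0.19 for Hsd17b7. Without ICI 1 and RI 2 Fads2 was -0.19 and Srebf2 -0.056. With a tumour left out Elovl5 ranged from -0.11 to 0.18, Fads2 from -0.17 to 0.22, Hmgcs1 from -0.29 to 0.061, Pmvk from -0.30 to 0.056, Cyp51 from -0.36 to 0.11 and Srebf2 from -0.079 to 0.19.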
